A study of Mus musculus with 10 samples.

Results

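Ephrins and Eph receptors are a family of paired cell surface molecules, and 10 genes of this family were followed here in single endothelial cells of mouse ear skin. The genes were the ephrins *Efnb1*, *Efnb2*, *Efna1* and *Efna5* and the receptors *Ephb4*, *Ephb1*, *Ephb3*, *Epha2*, *Epha4* and *Epha7*. They were taken by name from the 46517 Ensembl genes of the count tables, and all 10 were found. Cells came from 5 *Pik3caH1047R;Cdh5-CreERT2* Cre+ mice and 2 control mice, all 5 weeks old. In the mutant mice, 4-OHT (10 mg/ml in acetone) had been put on the dorsal ear at 3 weeks, which lets Cre switch on a chicken-derived *Pik3caH1047R* transgene in the *Rosa26* locus. The *Cdh5* promoter drives Cre in all endothelium, so both blood endothelial cells (BECs) and lymphatic endothelial cells (LECs) can carry it. Control 1 was an untreated C57BL/6J mouse. Control 2 was a Cre- animal of the *Pik3caH1047R;Cdh5-CreERT2* strain that had received 4-OHT. A further listed Cre- control was not analysed here, and the transgene has no row in the tables, so its expression in the mutant cells was not checked. The labels call the sorted cells LECs, but the Podoplanin and CD31 sort also held BECs.

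Eph receptors are receptor tyrosine kinases, and ephrins are their ligands on neighbouring cells. Type A ephrins are held in the membrane by a lipid anchor, whereas type B ephrins span it, so signals can pass into both the receptor cell and the ligand cell when they meet. In blood vessels *Efnb2* is a classic gene of arteries and *Ephb4*, its main receptor, a classic gene of veins, and the pair keeps arterial and venous cells apart. In lymphatic vessels *Efnb2* and *Ephb4* are both needed for collecting vessels and their valves to form.

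Every cell was placed in a class by marker genes that are not Eph or ephrin genes. Levels are given as CPM, the reads of a gene in the cells concerned, scaled to the same total of reads of all genes. BECs were cells in which the summed CPM of *Flt1*, *Emcn* and *Podxl* was above that of *Prox1*, *Flt4* and *Mmrn1*, and LECs were the reverse. Arterial BECs had *Gja5* at 50 CPM or more, venous BECs had *Ackr1* and *Selp* at 100 CPM or more in sum, and other BECs were under both limits. Valve LECs had *Cldn11* at 300 CPM or more. The remaining LECs were split by *Ptx3*, a gene of a subset of capillary LECs, at 100 CPM. The classes held 1620 LECs and 1464 BECs, among them 103 arterial BECs (6–28 per mouse), 587 venous BECs (18–159), 229 valve LECs (19–57) and 493 *Ptx3*-high LECs. Control 1 had only 10 *Ptx3*-high LECs, and the smallest sum of reads per mouse was 1237620, in arterial BECs. The tested unit was always the sum of reads of 1 class in 1 mouse.

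Class names were checked with markers that the limits did not use. In all 7 mice 8 of 10 arterial markers were higher in arterial than in venous BECs, 9 of 10 venous markers the reverse, and 7 of 10 valve markers were higher in valve than in other LECs. The share of venous cells among BECs was 14.8% and 11.8% in the controls and 39.0–54.9% in the mutants, and that of arterial cells 10.6% and 9.80% against 3.30–9.15%. *Ptx3*-high cells made up 5.62% and 23.4% of control LECs and 28.2–42.3% of mutant LECs. Summed keratinocyte genes stood at 67.0–279 CPM in control BECs and 12.9–104 CPM in mutant BECs, and summed fibroblast genes at 27.7–66.7 and 1.54–13.2 CPM. The plates of mutants 1–4 belong to another plate number series than those of mutant 5 and both controls, so genotype and plate series cannot be told apart except through mutant 5. In sums over a whole population such as BECs, fewer cells of a type and less RNA per cell cannot be told apart.

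The stretches upstream of 3 members are shown because the results below turn on them: *Efnb2* and *Efna5*, ephrins that were higher in arterial than in venous BECs, and *Ephb4*, the receptor that was higher in valve LECs. Each is the 250 bases before the start of the RefSeq gene (GRCm38.p6), 5′ to 3′ on the gene's own strand. Capitals mark GGGCGG or its reverse complement CCGCCC, the core that SP factors bind. The *Efnb2* window is chr8:8661243-8661492 on the minus strand, the *Efna5* window chr17:62881318-62881567 on the minus strand and the *Ephb4* window chr5:137349859-137350108 on the plus strand.
Efnb2: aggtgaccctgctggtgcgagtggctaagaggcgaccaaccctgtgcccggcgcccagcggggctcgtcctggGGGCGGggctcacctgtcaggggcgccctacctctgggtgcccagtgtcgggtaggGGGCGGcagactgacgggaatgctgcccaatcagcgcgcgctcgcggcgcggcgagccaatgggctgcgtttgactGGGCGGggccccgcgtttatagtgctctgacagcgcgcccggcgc
Efna5: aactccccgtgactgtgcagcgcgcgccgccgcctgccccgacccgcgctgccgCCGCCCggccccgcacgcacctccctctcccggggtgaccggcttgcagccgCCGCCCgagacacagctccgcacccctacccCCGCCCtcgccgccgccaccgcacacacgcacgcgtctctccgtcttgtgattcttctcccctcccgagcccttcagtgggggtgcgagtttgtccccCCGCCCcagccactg
Ephb4: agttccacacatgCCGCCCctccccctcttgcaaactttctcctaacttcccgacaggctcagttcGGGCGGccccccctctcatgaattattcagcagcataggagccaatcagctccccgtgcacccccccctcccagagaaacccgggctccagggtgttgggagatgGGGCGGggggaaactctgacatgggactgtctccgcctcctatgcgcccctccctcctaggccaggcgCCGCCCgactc
The *Efnb2* window held 3 of these cores, and the *Efna5* and *Ephb4* windows 4 each. On either strand, 32.7% of the 32851 RefSeq promoter windows of this length hold at least 1. The windows were rich in G and C, at 72.0% for *Efnb2*, 74.8% for *Efna5* and 64.0% for *Ephb4*, against a median of 52.4% over all windows. Cores of 4 other factor families were searched on both strands, and none was found in these 3 windows: CGGAAG (ETS, in 13.6% of all windows), TGGGAA (RBPJ, 21.6%), GTAAACA (FOX, 3.17%) and ACAATG (SOX, 10.7%). Elsewhere in the family, TGGGAA stood upstream of *Efnb1*, *Epha4* and *Epha7*, CGGAAG upstream of *Efna1* and ACAATG upstream of *Ephb1*. Such matches describe letters only.

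Read counts per length (RPKM, CPM per kilobase of summed exons) allow the members to be ordered. By its mean over all mice, *Efna1*, an ephrin with a lipid anchor, led in every class on this scale, and *Ephb4* came next. In arterial BECs the mean RPKM over 7 mice was 374 ± 98.1 (SD) for *Efna1*, 66.8 ± 22.7 for *Ephb4*, 22.5 ± 11 for *Efnb2* and 20.4 ± 14.1 for *Efnb1*, and the last pair did not differ beyond its spread. *Epha2*, *Epha4* and *Efna5* followed at 11–12.3 RPKM and also overlapped. In venous BECs *Efna1* stood at 158 ± 40.4 and *Ephb4* at 93.9 ± 30.7 RPKM, whereas *Efnb2*, at 4.51 ± 2.50, fell in rank below *Efnb1*, *Epha2* and *Epha4*. In valve LECs the order was *Efna1* (157 ± 52.7), *Ephb4* (119 ± 20.1) and *Efnb2* (27.2 ± 7.43), where the first pair overlapped between mice. In *Ptx3*-high LECs the order turned with genotype: *Efna1* stood at 196 ± 70.4 and *Ephb4* at 67.2 ± 12.7 RPKM in the 2 controls, against 43.2 ± 8.52 and 93.0 ± 16.6 RPKM in the 5 mutants. *Epha7*, a receptor best known from the nervous system, was hardly found, with at most 2.43 CPM in any LEC or BEC sum (control 1 LECs).

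**Figure D1:**
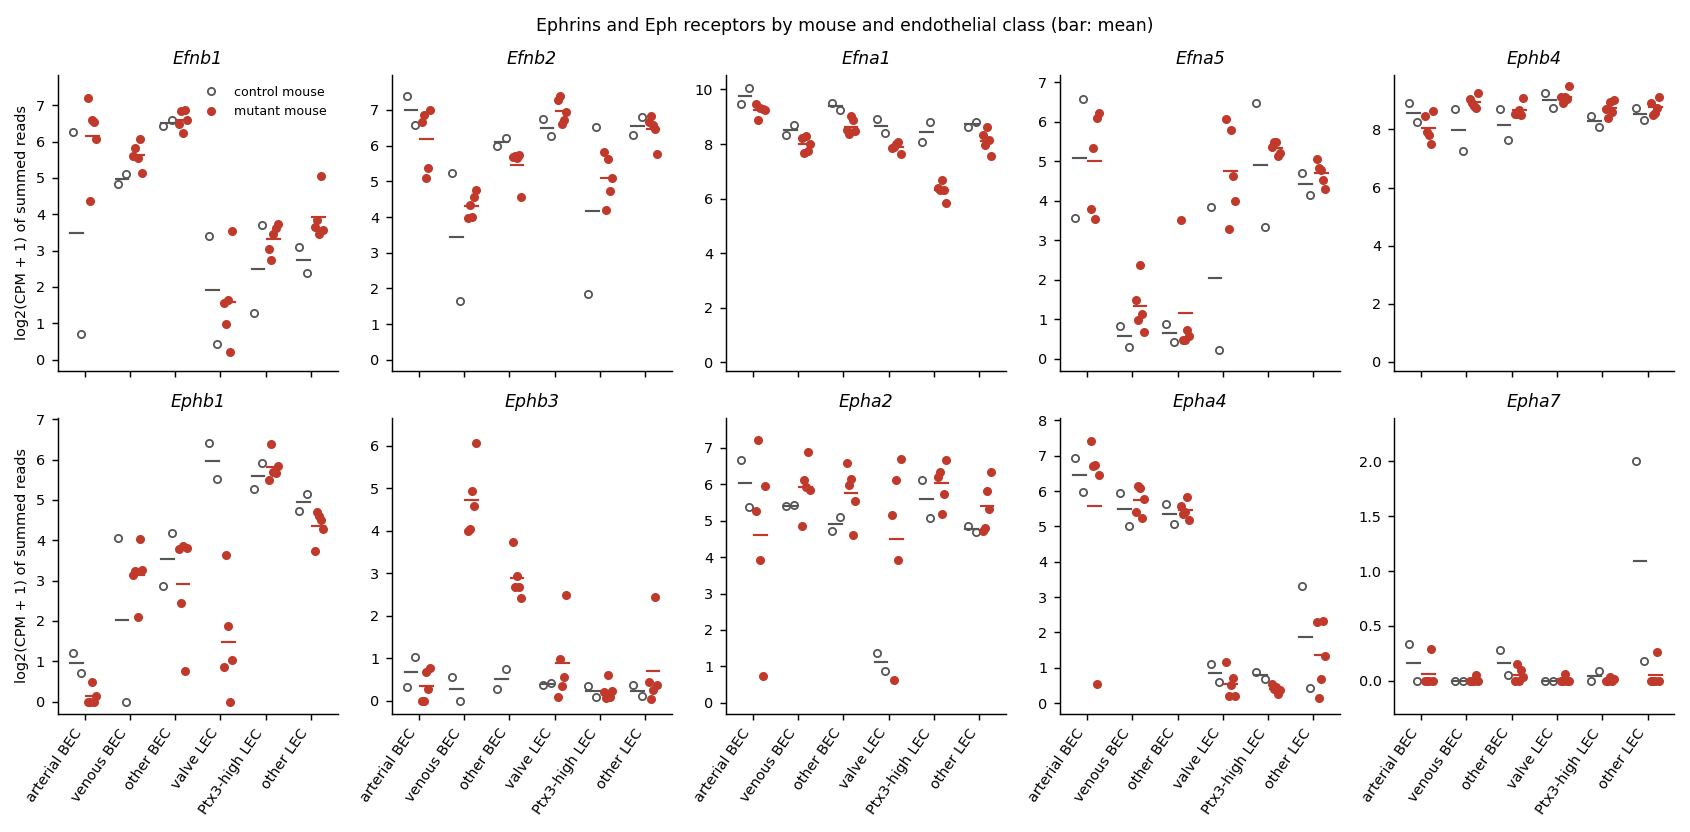
Level of each of the 10 genes in 6 classes of endothelial cell. The y axis is log2(CPM + 1) of the reads summed per mouse, the x axis the class, open points are the 2 control mice, filled points the 5 mutant mice and the short bar is the mean over mice. *Efna1* and *Ephb4* are high in every class, *Efnb1* and *Epha4* are higher in BEC than in LEC classes, and *Ephb3* is seen mainly in mutant venous and other BECs.

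The first comparison asked which members separate arteries from veins. Of 10 members, 7 had enough reads to be tested and 3 rose in arterial BECs, all of them ephrins: *Efna1*, *Efnb2* and *Efna5*. Over all genes tested, 3.36% were called (394 of 11723). No tested receptor was called in either direction, and *Ephb1* and *Ephb3* were too low to test. The median log2 difference of the tested members was 0.59, against -0.27 over all genes tested.

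*Efna1* was at 707 and 1050 CPM in the arterial BECs of controls 1 and 2 and at 703, 471, 641, 615 and 604 CPM in those of mutants 1–5. In venous BECs it was at 324 and 416 CPM in the controls and at 300, 203, 317, 214 and 253 CPM in the mutants. The groups of sums did not overlap, and each of the 7 mice had more *Efna1* in its arterial cells. The log2 difference was 1.36 ± 0.14 (SE), or 2.56-fold (adjusted p = 0.000291, edgeR quasi-likelihood test with mouse as a block), and it stayed past the threshold in all 21 alternatives that included more than the controls.

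*Efnb2* was at 168 and 95.4 CPM in control arterial BECs and at 100, 115, 33.3, 40.4 and 128 CPM in mutant ones. In venous BECs it was at 36.8 and 2.13 CPM in the controls and at 14.6, 19.3, 15.0, 22.4 and 26.2 CPM in the mutants. Every mouse had more in arterial cells, although the venous value of control 1 was above the arterial value of mutant 3. The log2 difference was 2.49 ± 0.58, or 5.63-fold (edgeR, adjusted p = 0.0376). The call was lost without control 1 (adjusted p = 0.0895) and without mutants 1, 2, 3 or 5 (0.0549–0.103), and likewise with no expression filter (0.0760), a stricter contaminant gate (0.0634), class limits doubled (0.0840) and the mutants alone (0.0960). Over 21 alternatives the difference stayed between 2.06 and 2.74. A single cell gave 24.3–70.2% of the arterial *Efnb2* reads of a mouse, so these values rest on few cells.

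*Efna5*, best known as a guidance cue for axons, was at 10.8 and 94.6 CPM in control arterial BECs and at 12.9, 39.1, 10.7, 67.7 and 73.8 CPM in mutant ones. Venous BECs had 0.786 and 0.236 CPM in the controls and 1.79, 0.958, 4.15, 1.18 and 0.610 CPM in the mutants. No venous sum reached an arterial one, and the log2 difference was 5.05 ± 1.10 (edgeR, adjusted p = 0.0280). The reads came from few cells. In control 1, 5 of 15 arterial cells held any, and in mutants 1 and 4 a single cell of 6 and of 13 held all of them. The call was lost without control 2 or without mutants 2, 4 or 5 (adjusted p = 0.0610–0.0898), with no contaminant gate (0.0532) and in the mutants alone (0.0920).

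*Ephb4*, the receptor of *Efnb2*, did not pass in this comparison. It stood at 475 and 304 CPM in control arterial BECs against 412 and 151 CPM in venous ones, higher in the arteries of both controls. In mutants 1–5 it was lower in arterial cells each time, at 350, 237, 226, 179 and 400 CPM against 522, 482, 444, 428 and 610 CPM. The log2 difference over all mice was -0.36 ± 0.25 (95% interval -0.86 to 0.14, edgeR adjusted p = 0.605). The test of whether the genotype effect itself differed between arterial and venous BECs gave *Ephb4* a difference of -1.46 ± 0.37 on the log2 scale (edgeR, adjusted p = 0.543). In that test 0 of 9 members were called, and 2 had an unadjusted p under 0.05 (all genes: 0% of 14780, with 1099 at an unadjusted p under 0.05 and 635 called by DESeq2). Of the members DESeq2 called *Ephb3* there, at -7.76 (adjusted p = 0.00253).

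The other receptors and *Efnb1* gave no call between arterial and venous BECs in the fit of all 7 mice. *Efnb1*, a transmembrane ephrin, had means of 70.5 ± 48.6 and 44.3 ± 13.7 CPM (SD, 7 mice), with an arterial value in control 2 of only 0.622 CPM. *Epha4*, a receptor that binds ephrins of both types, had 92.9 ± 52.4 and 51.6 ± 15.3 CPM and was higher in arterial cells of 6 of 7 mice. *Epha2*, the main receptor of *Efna1*, had 57.3 ± 51.0 and 59.0 ± 28.9 CPM. *Ephb1* and *Ephb3* were under the filter on low counts and were not tested. Their arterial means were 0.345 and 0.406 CPM, and their venous means 8.43 and 21.4 CPM. In the mutants alone *Ephb3* passed the filter through its venous sums, since the arterial BECs of all mutants together held 11 reads. It was called lower in arterial BECs there (-6.52 ± 1.09, edgeR adjusted p = 0.0206). As the gene entered the test only through the venous class, this call adds no separate support.

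**Figure D2:**
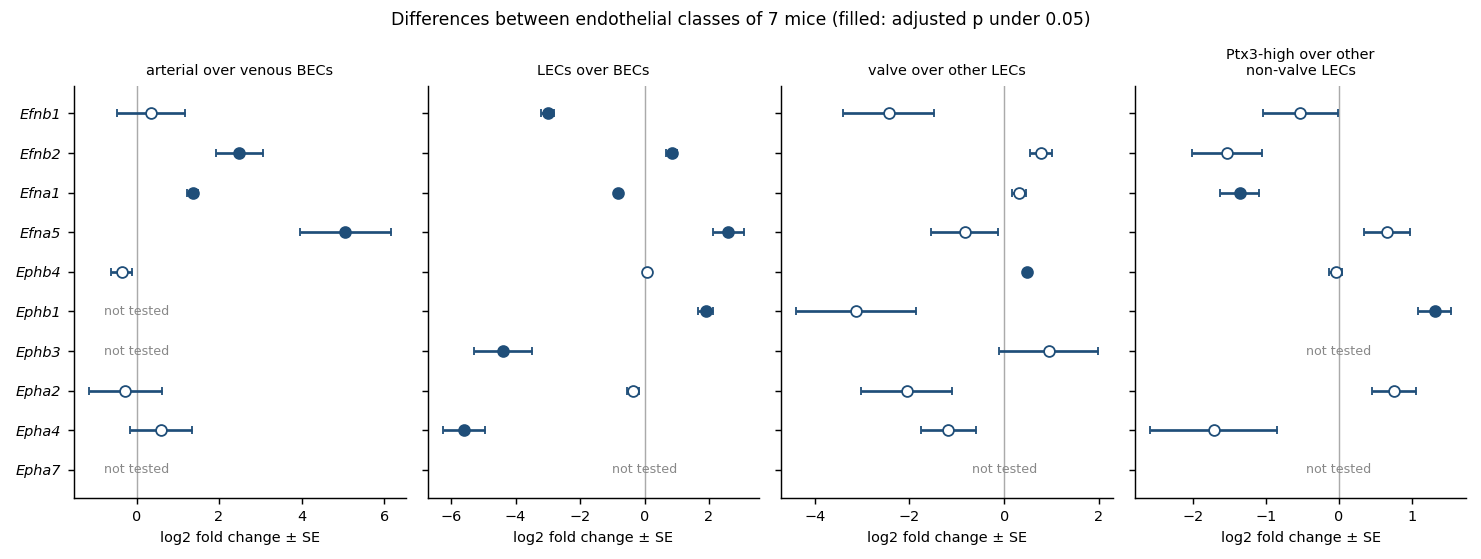
Differences between classes of the same mice for the members with enough reads. The x axis is the log2 ratio of the first class over the second with its standard error (bars), 1 panel per comparison, and filled points have an adjusted p under 0.05 in edgeR. *Efna1*, *Efnb2* and *Efna5* lie above 0 in arterial against venous BECs, *Efnb1* and *Epha4* lie far below 0 in LECs against BECs, and *Ephb4* lies close to 0 there and at 0.48 in valve LECs.

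The second comparison set LECs against BECs of the same mice. Of the 9 members tested, 7 were called, 3 higher and 4 lower in LECs, where 26.4% of all 17269 genes tested were called. Members of each type went both ways: *Efnb2*, *Efna5* and *Ephb1* were higher in LECs, and *Efnb1*, *Efna1*, *Ephb3* and *Epha4* in BECs. Their median log2 difference was -0.37, against 0.01 over all genes.

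Among the ephrins, *Efnb1* showed the clearest split. BECs had 73.3 and 76.6 CPM in the controls and 68.4, 79.0, 60.2, 90.1 and 64.4 CPM in the mutants. LECs had 7.46 and 5.89 CPM in the controls and 7.98, 9.08, 8.54, 19.1 and 11.5 CPM in the mutants. The groups lay far apart, with a log2 difference of -3.01 ± 0.19 (edgeR, adjusted p = 7.3e-06). *Efnb2* went the other way by a smaller step. It was at 76.2 and 102 CPM in control LECs against 67.6 and 68.7 CPM in control BECs. In mutants 1–5 it was at 99.0, 87.3, 79.9, 60.0 and 51.1 CPM against 33.0, 37.3, 30.9, 37.1 and 34.8 CPM. It was higher in LECs of all 7 mice, by 0.84 ± 0.18 on the log2 scale (edgeR, adjusted p = 0.00795), and in the controls alone by 0.31 (adjusted p = 0.619). *Efna1* was lower in LECs of all 7 mice, with means of 261 ± 116 and 431 ± 156 CPM and a log2 difference of -0.81 ± 0.11 (edgeR, adjusted p = 0.000661), which was not called without mouse as a block (-0.76, adjusted p = 0.0652). *Efna5* had means of 29.3 ± 9.36 CPM in LECs and 5.56 ± 3.65 CPM in BECs, which did not overlap (log2 difference 2.60 ± 0.49, edgeR adjusted p = 0.00356).

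Among the receptors, *Epha4* was found almost entirely in BECs. It stood at 57.2 and 36.0 CPM in control and at 47.6, 59.0, 57.8, 42.6 and 48.7 CPM in mutant BECs. In LECs it stood at 7.45 and 0.431 CPM in the controls and at 2.19, 0.182, 0.496, 1.87 and 0.800 CPM in the mutants. This made a log2 difference of -5.60 ± 0.66 (edgeR, adjusted p = 0.000218). *Ephb1*, a receptor of type B ephrins, was the reverse, with 33.4 ± 7.76 CPM in LECs and 8.72 ± 2.34 CPM in BECs and no overlap (log2 difference 1.89 ± 0.22, edgeR adjusted p = 0.000219). *Ephb3*, another receptor of type B ephrins, was lower in LECs by 4.40 on the log2 scale (SE 0.90, edgeR adjusted p = 0.00597). In the controls *Ephb3* was under 1 CPM in both populations, and the value for the controls alone was -1.34 (adjusted p = 0.650).

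*Ephb4* was abundant in both lineages, and its difference between them was bounded closely. Its means were 433 ± 76.9 CPM in LECs and 409 ± 107 CPM in BECs, and the log2 difference was 0.07 ± 0.09 (95% interval -0.12 to 0.26, edgeR adjusted p = 0.648). *Epha2* had 45.9 ± 22.5 and 54.1 ± 14 CPM and a log2 difference of -0.37 ± 0.18 (edgeR, adjusted p = 0.182). Without mutant 5, whose LECs had the most *Epha2*, the difference was -0.54 with an adjusted p of 0.0140.

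The valves of lymphatic vessels were examined next. *Ephb4* was the 1 member of 9 tested that was called between valve and other LECs, where 1.39% of all 15142 genes tested were called. Valve LECs had 612 and 426 CPM of *Ephb4* in the controls and 549, 475, 558, 523 and 713 CPM in the mutants. Other LECs had 424 and 306 CPM in the controls and 453, 351, 425, 405 and 539 CPM in the mutants. The ranges overlapped between mice, but within each of the 7 mice the valve value was the higher one. Their log2 difference was 0.48 ± 0.08, or 1.40-fold (edgeR, adjusted p = 0.0133). It was called without any single mouse, and without mouse as a block it was not (0.48, adjusted p = 0.159).

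*Efnb2*, the ligand of *Ephb4*, had 107 and 75.5 CPM in control valve LECs and 154, 166, 96.8, 104 and 122 CPM in mutant ones. Other LECs had 71.7 and 105 CPM in the controls and 82.3, 75.5, 76.1, 54.8 and 42.9 CPM in the mutants. It was higher in the valve cells of 6 of 7 mice, control 2 being the exception, by 0.78 ± 0.23 on the log2 scale. It did not pass in edgeR (adjusted p = 0.156), did so in DESeq2 (0.82, adjusted p = 0.0102), and did so in edgeR without control 2 (0.98, adjusted p = 0.0445). *Efnb1*, *Ephb1* and *Epha2* had lower means over all mice in valve than in other LECs, with large errors (log2 differences of -2.44, -3.13 and -2.06). None passed in edgeR, with adjusted p from 0.288 to 0.379, and DESeq2 called all 3. For *Ephb1* the controls went the other way, with 6.94–13.1 RPKM in valve LECs against 5.19–6.47 RPKM in all LECs. The mutant means of *Ephb1* were 0.490 and 4.87 RPKM, so its lower mean came from the mutants. *Efna1* had 287 ± 96.5 and 258 ± 121 CPM and was not called.

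*Ptx3* marks a subset of capillary LECs. Between *Ptx3*-high and other non-valve LECs, which can hold further capillary cells, 2 of 8 tested members were called, with 2.12% of all 14899 genes. *Efna1* was lower in *Ptx3*-high LECs and *Ephb1* was higher. *Ephb1* had 37.5 and 58.9 CPM in control *Ptx3*-high LECs and 44.4, 82.3, 51.0, 49.8 and 56.3 CPM in mutant ones. The other non-valve LECs had 25.4 and 34.6 CPM in the controls and 12.2, 25.0, 23.5, 21.5 and 18.5 CPM in the mutants. The groups did not overlap and the log2 difference was 1.31 ± 0.23 (edgeR, adjusted p = 0.0212). Without any 1 of the 5 mutants the adjusted p was 0.0722–0.0852, without cycling cells 0.0636 and with class limits doubled 0.112.

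*Efna1* had 81.8, 78.4, 100, 77.7 and 56.5 CPM in the *Ptx3*-high LECs of mutants 1–5 against 318, 248, 389, 285 and 186 CPM in their other non-valve LECs. In the controls the values were 268 and 450 CPM in *Ptx3*-high cells and 395 and 452 CPM in the others. Each mutant had a wide gap, control 1, with its 10 *Ptx3*-high cells, a smaller one, and control 2 almost none. The log2 difference over all mice was -1.36 ± 0.26 (edgeR, adjusted p = 0.0339), and -0.19 in the controls alone. Without any 1 of the 5 mutants the adjusted p was 0.0866–0.116, and without mouse as a block 0.434. *Efnb2* had 39.3 ± 29.3 CPM in *Ptx3*-high and 90.8 ± 20.6 CPM in other non-valve LECs and was lower in all 7 mice, but was not called in edgeR (-1.53 ± 0.48, adjusted p = 0.166). DESeq2 called it (-1.55, adjusted p = 0.00793). *Ephb4* had 397 ± 89.1 CPM in *Ptx3*-high and 421 ± 79.8 CPM in other non-valve LECs (log2 difference -0.05 ± 0.09, 95% interval -0.22 to 0.12, edgeR adjusted p = 0.871).

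The effect of the *Pik3caH1047R* genotype was then examined in each class. In LECs 0 of 9 tested members passed in edgeR (2 at an unadjusted p under 0.05), where 3.18% of all 19447 genes were called and 3973 had an unadjusted p under 0.05. DESeq2 called 2 members, *Efna1* and *Epha2*. *Efna1* stood at 398 and 440 CPM in control LECs and at 223, 189, 267, 186 and 126 CPM in mutant LECs. All mutants lay below both controls. On the log2 scale they differed by -1.05 ± 0.25, with an adjusted p of 0.0637 in edgeR and 0.00324 in DESeq2. In edgeR it passed without mutant 5 (-0.92, adjusted p = 0.0410), with first plates only (0.0343), with cells thinned to equal depth (0.0450) and with the plate series as a covariate (-1.76, adjusted p = 0.0380).

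A comparison chosen after seeing the data took the *Ptx3*-high LECs alone. Among these cells 1 member, *Efna1*, was called in edgeR (-2.24 ± 0.26, adjusted p = 0.00542), with 5.74% of all 15934 genes called. The value in the LECs that were neither valve nor *Ptx3*-high was -0.54 ± 0.26 (edgeR, adjusted p = 0.405). The difference between these effects was not tested. Cycling cells moved with the genotype in LECs, since summed *Mki67* and *Top2a* stood at 22.1–26.8 CPM in controls and 113–241 CPM in mutants. In LECs without cycling cells the *Efna1* difference was -0.88 (edgeR, adjusted p = 0.142) and that of *Epha2* 0.87 (adjusted p = 0.302).

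*Epha2*, the receptor that *Efna1* engages most, moved the other way in LECs. It had 27.0 and 24.4 CPM in the controls and 42.7, 41.1, 51.1, 42.5 and 92.3 CPM in the mutants, all of them higher. The log2 difference was 1.08 ± 0.35 and was not called in edgeR (adjusted p = 0.130), but was called in DESeq2 (1.07, adjusted p = 0.0184) and in edgeR with the plate series as a covariate (1.81, adjusted p = 0.0365). The other members of the family had smaller differences or low levels: *Ephb4* had 383 ± 91.5 CPM in control and 453 ± 70.8 CPM in mutant LECs (log2 difference 0.26 ± 0.19, 95% interval -0.11 to 0.62), and *Efnb2* had 88.9 ± 18 and 75.5 ± 19.7 CPM (-0.20 ± 0.28).

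In BECs 3 of 9 tested members were called, with 2.46% of all 18841 genes. *Ephb3* rose in mutant BECs, and *Efna1* and *Efnb2* fell. DESeq2 called these 3 and *Epha2*, which edgeR did not call. *Epha2* was higher in the BECs of all mutants, at 11.3–14.8 RPKM against 7.52–7.54 RPKM in the controls. Higher values in the mutants were thus seen in both lineages, and in the edgeR fit of all mice *Epha2* was called in neither. *Ephb3* was at 0.282 and 0.656 CPM in control BECs and at 13.2, 10.6, 18.7, 13.5 and 34.4 CPM in mutants 1–5. Controls and mutants lay far apart, with a log2 difference of 5.27 ± 0.74 (edgeR, adjusted p = 0.0125). The pooled reads were 6956 in mutant and 36 in control BECs, a ratio of CPM of 44.4 (95% counting interval 32.0–63.4, which covers counting error only). The call held without any single mouse. It was lost in the cells kept when no contaminant gate was used (1.91, adjusted p = 0.197) and in BECs that were neither arterial nor venous (3.92 ± 1.02, adjusted p = 0.165).

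Most of the *Ephb3* reads lay in venous cells. Venous BECs had 0.472 and 0 CPM in the controls and 14.9, 15.6, 29.9, 23.2 and 65.8 CPM in mutants 1–5. By counting error of reads alone the 0 allows up to 0.709 CPM, or 3 reads. It rests on 18 cells, and *Ephb3* reads lay together in few cells, so this limit is too narrow. *Ephb3* was the 1 member of 9 called in venous BECs (log2 difference 6.72 ± 1.26, edgeR adjusted p = 0.0248), where 6.92% of all 16640 genes were called. Pooled venous cells held 5794 mutant reads and 3 control reads, a ratio of 123 with a 95% counting interval of 42.1–596. This interval too covers counting error only and is too narrow for reads that lie in few cells. The call was lost without mutant 1, 2, 3 or 4 (adjusted p = 0.0506–0.0684), with no contaminant gate (4.78, 0.0745) and with the plate series as a covariate (7.83, 0.0720). Other BECs had 0.214 and 0.688 CPM in the controls and 12.4, 5.40, 6.66, 5.42 and 4.40 CPM in the mutants. Arterial BECs had at most 1.04 CPM in any mouse, and LECs at most 1.97 CPM.

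The cells with *Ephb3* were a minority. In the venous BECs of mutants 1–5 a read was found in 16 of 100, 15 of 88, 23 of 159, 9 of 67 and 37 of 134 cells, and the top cell gave 11.4–38.6% of the reads. *Ephb3* was also read in cells set aside for their keratinocyte (43.5 CPM), fibroblast (37.0 CPM) or mural genes (23.8 CPM), sets that share some cells. Such genes were looked at in the cells concerned. Mutant venous cells with an *Ephb3* read had 61.2 CPM of summed keratinocyte genes and those without had 47.9 CPM, while their endothelial genes stood at 3280 and 3525 CPM. In the same order, fibroblast genes stood at 0.888 and 4.90 CPM and mural genes at 25.9 and 33.4 CPM. Whether *Ephb3* reads came from other cells was not tested. In all mutant BECs the keratinocyte sums were 65.9 CPM with and 73.5 CPM without an *Ephb3* read, and the ranges of keratinocyte sums in mutant and control BECs overlapped as given above.

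*Efna1* in BECs went from 655 and 647 CPM in the controls to 339, 268, 419, 356 and 334 CPM in the mutants. There was no overlap, and it fell by 0.91 on the log2 scale (SE 0.16, edgeR adjusted p = 0.0293). The call was lost without control 1 or 2 and without mutants 1, 2 or 4 (adjusted p = 0.0560–0.0923), with thinned cells (0.0565) and with each cell weighted equally (0.0703). *Efnb2* in BECs went from 67.6 and 68.7 CPM to 33.0, 37.3, 30.9, 37.1 and 34.8 CPM, and fell by 0.97 on the log2 scale (SE 0.19, edgeR adjusted p = 0.0358). Its adjusted p was 0.0631–0.0980 without control 1 or 2 or without mutants 1–4, 0.0714 with first plates only and 0.0760 without cycling cells. With no expression filter the adjusted p was 0.0530 for *Efna1* and 0.0664 for *Efnb2*. Both genes were lower in venous than in arterial cells, and mutant BECs held more venous and fewer arterial cells by the shares given above. In BECs without arterial and venous cells the edgeR differences were -0.74 ± 0.21 for *Efna1* (adjusted p = 0.186) and -0.58 ± 0.36 for *Efnb2* (adjusted p = 0.507). Neither gene overlapped there, with *Efna1* at 335–401 RPKM in controls and 178–281 RPKM in mutants, and *Efnb2* at 14.4–17.1 and 5.25–12.1 RPKM. In venous BECs *Efna1* stood at 177–228 and 111–173 RPKM without overlap and was not called, while *Efnb2* overlapped. How far the class shares account for the falls in BECs was not tested.

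**Figure D3:**
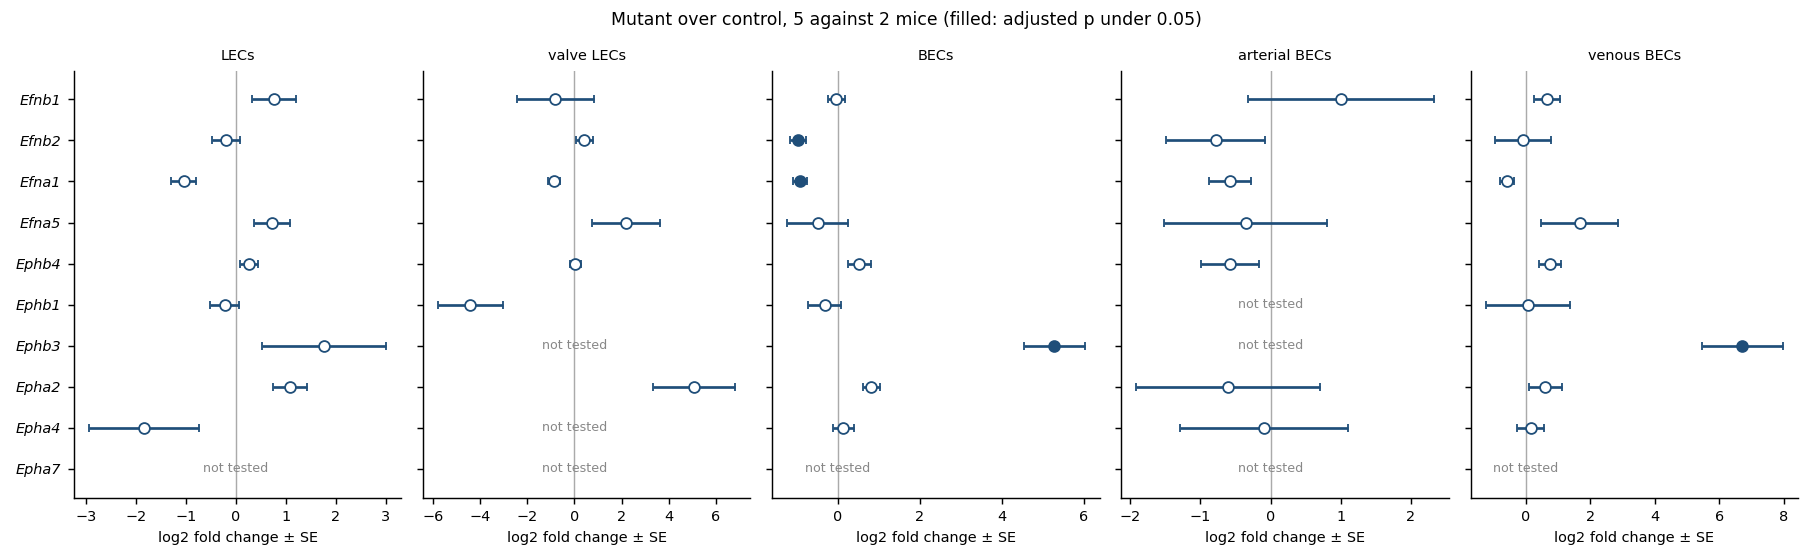
Mutant against control differences of the tested members in 5 populations. The x axis is the log2 ratio of 5 mutant over 2 control mice with its standard error (bars), 1 panel per population, and filled points have an adjusted p under 0.05 in edgeR. *Ephb3* is far above 0 in BECs and venous BECs, *Efna1* is below 0 in all 5 panels, and no point is filled in LECs, arterial BECs or valve LECs.

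Within the arterial class 0 of 7 tested members were called (0% of 12468 genes in edgeR, 733 at an unadjusted p under 0.05 and 300 called by DESeq2). *Efna1* was lower in all mutants than in both controls (log2 difference -0.58 ± 0.30), and *Efnb2* had 132 ± 51.6 CPM in control and 83.3 ± 43.5 CPM in mutant arteries (-0.78 ± 0.71). No member had an unadjusted p under 0.05 there, and DESeq2 called 0 members. In venous BECs *Efnb2* had 36.8 and 2.13 CPM in the controls, 1 above and 1 below all mutants (14.6–26.2 CPM). The log2 difference was -0.08 ± 0.86, and without control 1 it turned to 3.21 (adjusted p = 0.0174). *Ephb4* in venous BECs was at 412 and 151 CPM in the controls and at 522, 482, 444, 428 and 610 CPM in the mutants, all above both controls. It was not called (0.75 ± 0.35, edgeR adjusted p = 0.213), and was called without control 1 (1.74, adjusted p = 0.00459).

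In valve LECs 0 of 7 tested members were called, and 3 had an unadjusted p under 0.05 (all genes: 0% of 13841 in edgeR, 1712 at an unadjusted p under 0.05 and 876 called by DESeq2). DESeq2 called the same 3 members, *Efna1*, *Ephb1* and *Epha2*. *Efna1* had 481 and 340 CPM in control valve LECs and 232, 238, 253, 270 and 195 CPM in mutant ones, again without overlap (-0.86 ± 0.25, edgeR adjusted p = 0.263, DESeq2 adjusted p = 0.0366). *Ephb1* had 84.7 and 45.0 CPM in the controls and 0.814, 11.4, 2.65, 0 and 1.04 CPM in the mutants (-4.41 ± 1.37, edgeR adjusted p = 0.285). The control values rested on 6 of 23 and 6 of 19 cells, and single cells gave 68.0% and 51.9% of the reads. *Epha2* had 1.58 and 0.846 CPM in the controls and 34.4, 0.555, 68.8, 14.2 and 103 CPM in the mutants, so that mutant 2 lay with the controls (5.07 ± 1.75, edgeR adjusted p = 0.328).

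Whether the genotype effect differed between LECs and BECs was tested directly. Of 10 members tested 0 were called in edgeR and 1 had an unadjusted p under 0.05, where 0.338% of 21613 genes were called and 2646 had an unadjusted p under 0.05, and DESeq2 called *Ephb3* (-4.01, adjusted p = 0.00651). In edgeR the *Ephb3* difference was -4.04 ± 1.23 (adjusted p = 0.243). For *Efna1* the effect in LECs minus that in BECs was -0.19 ± 0.25 (95% interval -0.68 to 0.29, adjusted p = 0.861). *Efnb2* had 0.70 ± 0.33 (adjusted p = 0.453).

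Shares of cells with a read were compared at equal depth, since each cell was thinned to 50000 reads. For 45 pairs of a member and a class the shares could be compared, and in 13 the controls and mutants did not overlap, while over all genes and classes 23.7% of pairs did not. The count of 13 is near this share, so it is not particular to the family, and the values below only describe single members. With 5 against 2 mice the two-sided exact permutation test cannot go below 0.0952, and all 13 stood at this value. *Efna1* was read in 87.6% and 78.9% of control LECs and in 52.8–73.2% of mutant LECs. *Epha2* was read in 13.5% and 7.02% of control LECs and in 17.3–38.1% of mutant LECs, and in 16.9% and 13.1% against 22.7–29.9% of BECs. *Ephb3* was read in 4.76% and 0% of control and 9.00–17.9% of mutant venous BECs. The 0% is 0 of 18 cells, which allows a share of up to 16.7%, and *Ephb3* was read in 0.541–2.49% of LECs at the same depth. *Efnb2* was read in 34.8% and 42.1% of control valve LECs and in 54.2–80.5% of mutant ones, although its CPM there overlapped. *Ephb4* was read in 84.2–87.0% of control and 80.8–97.4% of mutant valve LECs.

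**Figure D4:**
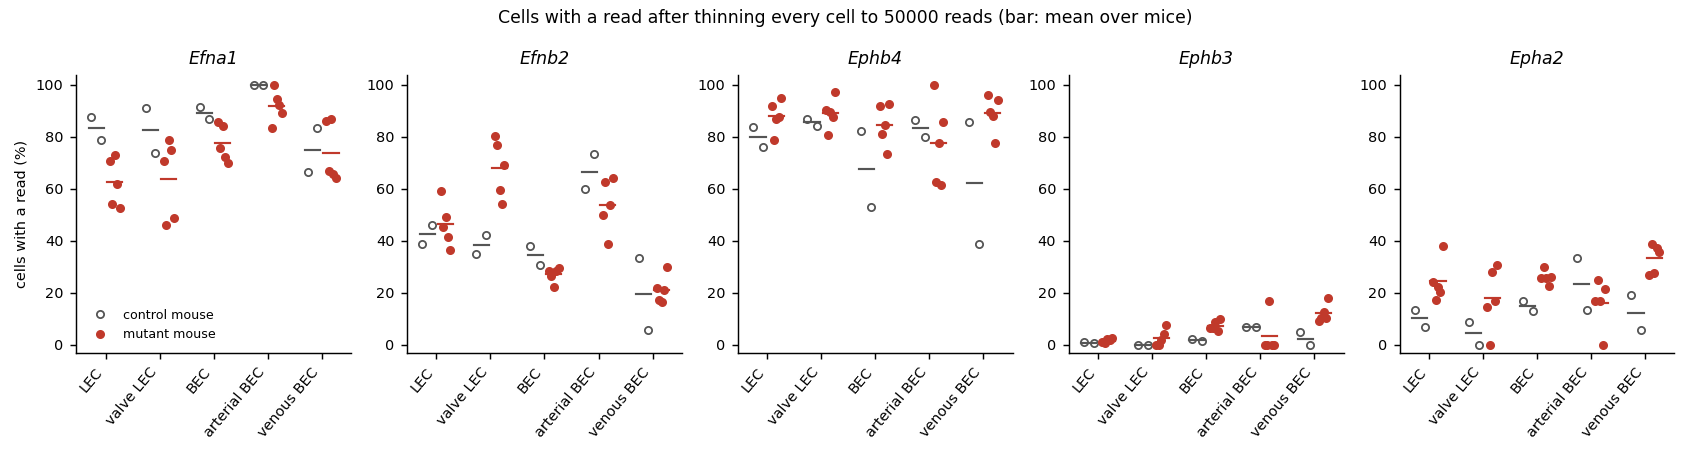
Share of cells with at least 1 read of *Efna1*, *Efnb2*, *Ephb4*, *Ephb3* and *Epha2* after every cell was thinned to 50000 reads. The y axis is the share in percent, the x axis the class, open points are the 2 control mice and filled points the 5 mutant mice. *Efna1* and *Ephb4* have the highest shares, and *Ephb3* in 9.00–17.9% of mutant venous BECs.

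The 12 other Eph and ephrin genes were mostly too low to test, with 1–11 of them tested in each comparison. Between LECs and BECs 5 were tested and 1 was called. This was *Efna4*, a lipid-anchored ephrin, with 10.5 ± 3.76 CPM in LECs and 2.77 ± 2.13 CPM in BECs (log2 difference 2.30 ± 0.69, edgeR adjusted p = 0.0362). No other gene of this list was called by edgeR in the 11 comparisons, in which 0–2 had an unadjusted p under 0.05. DESeq2 called 1 or 2 of them in 5 comparisons, *Efna4*, *Epha3*, *Epha8* or *Ephb6*. Members of the list had a median log2 difference of 2.33 between mutant and control venous BECs, beside 0.16 over all genes, with none of 9 called. Most genes of the list are low, and control venous sums held fewer reads (4232917–6357601) than mutant ones (20102675–47702597). With no expression filter, which lets in more low genes, the median over all genes was 0.74. The 2.33 was thus not set against genes of like level and shows no rise of the family.

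Of 35 genes that carry Eph and ephrin signals inside the cell, 33 were tested between LECs and BECs, and 12 were higher and 5 lower in LECs, where 26.4% of all genes were called. The higher ones included *Src*, a kinase recruited by type B ephrins (12.0 ± 6.94 against 0.841 ± 1.14 CPM, log2 difference 4.80 ± 0.77), *Pard3*, a polarity protein (32.3 ± 9.44 against 2.94 ± 1.31 CPM, 3.52 ± 0.42) and *Itsn1*, a Cdc42 exchange factor that binds EphB receptors (2.01 ± 0.29). *Chn1* was higher in LECs (2.56 ± 0.70) and *Chn2* lower (-1.94 ± 0.22). Both encode chimaerins, Rac-inactivating proteins, and *Chn1* acts downstream of *Epha4*. The edgeR adjusted p of these 5 lay between 0.000187 and 0.0246. Their list had a median of 0.16 against 0.01 over all genes. *Rgs3*, which binds ephrin-B tails, fell in *Ptx3*-high LECs (134 ± 46.4 against 284 ± 76.3 CPM, -1.06 ± 0.13, edgeR adjusted p = 0.00585) as the 1 call among 32 tested (all genes: 2.12%). *Chn1* rose in mutant BECs, from 0.348 ± 0.196 to 8.84 ± 3.60 CPM (4.65 ± 0.81, edgeR adjusted p = 0.0276), as the 1 call among 33 (all genes: 2.46%). No partner was called by edgeR in the other 8 comparisons, in which 4–8 had an unadjusted p under 0.05 and DESeq2 called 0–6.

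The genes whose levels went most alike with *Efnb2* over 35 sums (5 classes in 7 mice) were *Map4k2*, *Cldn5*, *Gja4*, *Cd82* and *Ehd1*, with Pearson's r of log2(CPM + 1) from 0.76 to 0.81 among 9554 genes. Those most like *Ephb4* were *Mapk11*, *Cldn11*, *Ppp2r5b*, *Mboat2* and *Agpat4*, with r from 0.69 to 0.75. *Cldn11* set the limit of the valve class. Sums of 1 mouse share plates and depth, so these values are a description.

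All 10 genes are protein coding and lie apart in GRCm38 (GENCODE vM21). The largest spans are those of *Ephb1* (chr9:101922128-102354693, minus strand) and *Efna5* (chr17:62604184-62881317, minus strand), and the smallest is that of *Efna1* (chr3:89271733-89281142, minus strand). *Efnb2* lies at chr8:8617434-8661242 (minus strand), *Ephb3* at chr16:21204755-21223305 (plus strand), *Epha2* at chr4:141301240-141329384 (plus strand) and *Ephb4* at chr5:137350109-137378669 (plus strand). Exons of *Ephb4* overlap those of *Zan* on the opposite strand, and exons of *Ephb1* those of *Gm26846*. Smart-Seq2 does not keep the strand, so reads in these overlaps cannot be told apart.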

How the data were processed

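Endothelial cells sorted singly from ear skin (384 wells a plate) were sequenced with Smart-Seq2, and mutants 3 and 5 filled 2 plates each. The authors deposited raw read counts per gene and cell. Per their methods and processing notes, TopHat2 2.1.1 aligned the reads to GRCm38 plus chicken *PIK3CA*, SAMtools 0.1.18 removed duplicates and featureCounts assigned reads to genes. Which annotation was used is not given in the sources used here. There were no molecular barcodes, and removal of reads at equal positions compresses high counts. A second deposited file gives summed exon lengths, used for RPKM. GENCODE vM21 gave symbols for 46005 of 46517 Ensembl IDs (98.9%).

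Lower limits of 200 genes and 50000 reads per cell and an upper limit of 10% for mitochondrial reads left 3248 of 3456 wells, with a median of 295699 reads. Plates held 99969650–151812175 reads. Cells were set aside (162) when summed keratinocyte, fibroblast, mural, immune or Schwann genes were above *Pecam1*, *Cdh5* and *Cldn5*, and no doublet caller was run. Plates of a mouse were added together, and a sum needed at least 5 cells. Sums were tested with the quasi-likelihood F test of edgeR 4.0.16 under R 4.3.3 (TMM, filterByExpr), with mouse as a block where classes of the same mice were compared. P-values were adjusted by Benjamini-Hochberg over all genes tested and called under 0.05. The SE of a fold change is its size over the square root of F, and 95% intervals are 1.96 SE. DESeq2 1.42.0 and limma 3.58.1 were alternatives, as were DESeq2 size factors, no expression filter, each mouse left out, other contaminant gates, first plates, thinned cells, no cycling cells, class limits halved and doubled, the plate series, and either genotype alone. Chosen after seeing the data were LECs without valve and *Ptx3*-high cells, *Ptx3*-high LECs alone, and BECs without arterial and venous cells. Where leaving out a control left 1, that mouse was taken to vary like the mutants. Scripts were tested on simulated data.

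Every member called by edgeR in the fit of all mice was named in its comparison. Members that were not called were named only in part. The plots of log2 ratios show the tested members in the comparisons drawn there. Of other lists, at most 5 called genes with the largest fold change and at least 5 CPM were named. For likeness the 5 highest correlations among genes of at least 10 CPM were named. Members, lists, limits and tests were chosen with earlier results of these data known. Promoter windows are from RefSeq (GRCm38.p6), and all 10 members matched. The windows of *Efna1* and *Ephb3* reach into the annotated gene and are not printed. Figures were drawn with matplotlib 3.10.9 in Python 3.11.15.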

Additional observations from a re-analysis of the deposited data

Results flagged for a closer look

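Of 57 groups of 5 mutant mice tested for a mouse far from the rest, 5 were picked out, and chance picks about 1 in 20. Mutant 4 had 32.4 CPM of *Efnb1* in LECs that were neither valve nor *Ptx3*-high, where the other mutants had 9.90–13.2 CPM. Mutant 5 had the lowest *Efnb2* in other BECs, 22.7 CPM against 49.8–52.2 CPM, and the highest *Ephb4* there, 538 CPM against 364–405 CPM. It also had 92.3 CPM of *Epha2* in LECs, where the others had 41.1–51.1 CPM. Mutant 1 had 12.4 CPM of *Ephb3* in other BECs against 4.40–6.66 CPM. Mutant 5 is the 1 mutant mouse whose plates share the number series of the controls, and the part of the series in its values was not tested.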

How the results depend on the processing

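Of 1879 fold changes of members under alternatives, 1774 kept their direction and side of the threshold, 79 lost a call, 25 gained one and 1 reversed (*Efnb2* in mutant against control venous BECs, 3.21 without control 1 and -0.97 to 3.21 over the mice left out in turn). Between arterial and venous BECs the count of 3 called members became 1–3 when 1 mouse was left out and 0 in the controls alone. No mouse left out kept all 3, since the 3 without control 2 included *Ephb1* (-5.37) in place of *Efna5*. Between LECs and BECs the 7 became 1 in the controls alone and 6 with no replicate block, which lost *Efna1*. The 1 of valve LECs became 5 in DESeq2, 0 with no replicate block, 0 in the controls alone and 1–2 without 1 mouse. The 2 of *Ptx3*-high LECs became 1 without cycling cells, 1 with limits doubled, 1 with no replicate block, 0 in the controls alone and 0–2 without 1 mouse. For mutant against control LECs, 0 became 2 in DESeq2, 1 with first plates, 1 with thinned cells, 2 with the plate series as covariate, 1 in *Ptx3*-high LECs alone and 0–1 without 1 mouse. For BECs, 3 became 1 with no expression filter, 0 with the replicate number as a block, 1 with the plate series as covariate, 0 within the controls' plate series, 0 without arterial and venous cells, 2 with first plates, thinned cells, no cycling cells, equally weighted cells or no contaminant gate, and 1–3 without 1 mouse. For venous BECs, 1 became 0 with the block, 0 with the plate series, 0 within the controls' series and 0–4 without 1 mouse, and with no contaminant gate the 1 was *Epha7* (-7.25) in place of *Ephb3*. For valve LECs 0 became 3 in DESeq2, and for both tests of a difference between effects 0 became 1 in DESeq2. The 13 shares that did not overlap became 5 without thinning and 13–25 without 1 mouse.

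The replicate numbers only name mice. Deviations of same-numbered control and mutant mice correlated at -0.025 and -0.011 in LECs and 0.001 and 0.104 in BECs. Counts over all genes moved as well. With 618 called in mutant against control LECs, the range was 192–653 without 1 mouse and 0–2517 under other settings, and 2 remained with the replicate block. With 463 in BECs it was 157–716 and 0–2480, with 1151 in venous BECs 157–3684 and 14–3548, with 394 between arterial and venous BECs 259–351 and 36–1713, with 210 in valve LECs 105–207 and 1–1716, with 316 in *Ptx3*-high LECs 92–617 and 17–1346, with 4555 between LECs and BECs 3693–4429 and 973–6111, and with 73 in the LEC minus BEC test 13–59 and 6–1334. Only 2 controls and 6–28 arterial cells per mouse limit these comparisons.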

Other observations

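The cells set aside as other cell types also carried the family. The 97 cells with keratinocyte genes above the endothelial ones held 369 CPM of *Efna1*, 144 CPM of *Ephb4*, 55.2 CPM of *Efna5* and 1.56 CPM of *Ephb1*. The 61 cells with mural genes above the endothelial ones held 75.4 CPM of *Epha2* and 12.6 CPM of *Ephb1*. *Epha7* was at 12.1 CPM in the 23 cells with fibroblast genes above the endothelial ones, and at 0 in the keratinocyte and mural sets. Some cells were past the limit for several of these lists and were counted in each, so the sets are not separate cell types. These are pooled values over few cells, so they have no replicate error.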
